A study of Homo sapiens with 12 samples.

Results

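NFKBIA, RELB, IL32 and SOD2 are 4 genes of the NF-kB pathway, followed here through RNA counts from 12 libraries of Ishikawa cells, a line derived from a human endometrial adenocarcinoma. They were named by symbol, out of 45320 genes in the count files, and were chosen by their levels in the knockdown and control arms of these same libraries: the inhibitor gene NFKBIA was higher in the knockdown arm, and the subunit gene RELB and the target genes IL32 and SOD2 were lower. For them the comparison of the arms is therefore a description, with no test. All 4 were among the 17020 genes with enough counts to be tested.

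NF-kB is a family of transcription factor dimers built from the subunits RELA, RELB, REL, p50 and p52, the last pair being cut from the products of NFKB1 and NFKB2. In resting cells IkB proteins, of which NFKBIA encodes the best known member, hold the dimers in the cytoplasm, and receptor signals through the IkB kinases lead to degradation of the inhibitor. RELB pairs mainly with p52 in the slower, noncanonical branch. In the endometrium the pathway is known for its role in inflammatory and cytokine signals, and NFKBIA is itself a target gene that the pathway switches on.

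The control arm (shNC) carried a hairpin labelled as control. The knockdown arm (shARID1A) carried one that targets ARID1A, whose protein binds DNA as part of the SWI/SNF remodelling complex. All cells, control arm included, were kept in phenol red-free medium with steroid-stripped serum for 4 days or more. For the last 8 h each arm received the vehicle DMSO, 17-beta-estradiol (E2) at 10 nM, or the same E2 dose plus fulvestrant at 100 nM, which blocks and degrades the estrogen receptor. The 6 groups held 2 libraries each. How many hairpins or derived lines stand behind an arm is not stated, and neither is the culture each library came from, so the p-values measure only the spread between these libraries.

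Library totals ran from 28810351 to 38657162 counts. ARID1A (chr1:27055871-27107678, hg19) ranged from 109.9 to 123.3 CPM (counts put on 1 library size with TMM factors) in shNC and from 53.8 to 61.7 CPM in shARID1A. Averaged over the treatments, this is a log2 fold change of -1.03 (SE 0.04, edgeR quasi-likelihood test, adjusted p = 3.02e-19), so that the knockdown was partial. Epithelial marker genes summed to 1314 to 1433 CPM in shNC and 1039 to 1186 CPM in shARID1A (9 of 10 genes matched). KRT7, KRT8 and KRT18 carried most of this sum. EPCAM had at most 1.97 CPM and CDH1 at most 0.658 CPM, and KRT19, CLDN4 and ESRP1 at most 5, 11 and 2 counts. The 5 of 7 endometrial gland markers matched summed to 109.6 to 131.6 CPM in shNC and 79.2 to 94.5 CPM in shARID1A. Most of that was MUC1, while PAX8 had at most 2.98 CPM, EMX2 at most 2 counts and WFDC2 0. The share of counts on mitochondrially encoded genes was 4.76% to 5.12% in shNC and 5.50% to 5.72% in shARID1A.

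In hg19, NFKBIA lies at chr14:35870740-35873955 on the minus strand, RELB at chr19:45504712-45541452 on the plus strand, IL32 at chr16:3115313-3131908 on the plus strand and SOD2 at chr6:160100096-160183561 on the minus strand. Promoter windows were taken from RefSeq on GRCh38.p14, with 1 start for NFKBIA, 2 for IL32 and 4 for SOD2, so that 3 of the 4 genes matched. No RELB window was at hand, so RELB was not searched. Both 250-base stretches below end just before a transcription start. They are shown because, of the upstream sequences of these 3 genes, they hold a match to the 10-base kappa B consensus, the motif that NF-kB dimers bind. The NFKBIA stretch is chr14:35404750-35404999 on the minus strand and the IL32 stretch chr16:3065153-3065402 on the plus strand. Capitals mark the matches.
NFKBIA: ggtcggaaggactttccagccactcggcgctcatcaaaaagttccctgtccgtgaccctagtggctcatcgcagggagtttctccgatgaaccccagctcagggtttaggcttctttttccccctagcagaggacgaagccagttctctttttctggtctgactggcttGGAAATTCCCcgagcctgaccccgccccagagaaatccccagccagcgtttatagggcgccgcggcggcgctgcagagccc
IL32: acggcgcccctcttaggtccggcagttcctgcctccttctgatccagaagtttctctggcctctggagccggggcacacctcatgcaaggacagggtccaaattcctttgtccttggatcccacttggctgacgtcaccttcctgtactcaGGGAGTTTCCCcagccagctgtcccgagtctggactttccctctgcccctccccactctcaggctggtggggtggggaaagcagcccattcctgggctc

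In the NFKBIA window the match GGAAATTCCC begins at position -81 from the start (the consensus reads on the other strand). In the IL32 window GGGAGTTTCC begins at position -99 on the printed strand, and GGAGTTTCCC, matched on the other strand, begins at position -98, so that the matches share 9 of their 10 letters. No kappa B match was found in the second IL32 window or in the 4 SOD2 windows. Of 34943 distinct promoter windows of 300 bases (250 before and 50 after a start), 5.90% held a kappa B match on either strand. No window of the 3 genes held the AP-1 motif TGANTCA, which 7.72% of all windows held, or the estrogen response element GGTCANNNTGACC, which 0.0572% held. These matches describe letters in the windows and do not show binding.

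The inhibitor gene NFKBIA stood higher in every shARID1A library than in any shNC library. In shNC its level was 37.1 and 36.5 CPM with DMSO, 37.3 and 34.7 CPM with E2, while E2 plus fulvestrant gave 38.8 and 35.7 CPM. In shARID1A it was 48.2 and 47.2 CPM with DMSO, 50.2 and 52.5 CPM with E2, while E2 plus fulvestrant gave 46.8 and 45.9 CPM. The shNC treatments overlap one another, while in shARID1A both E2 libraries lie above the other 4. The arm means were 36.7 ± 1.40 and 48.5 ± 2.47 CPM (SD, n = 6), from 1084 to 1943 counts per library. The fitted log2 difference averaged over the treatments put NFKBIA 32.0% higher in shARID1A.

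RELB, the subunit gene, was the least abundant of the 4 per length and was lower in every shARID1A library. In shNC its level was 40.5 and 40.3 CPM with DMSO, 47.5 and 40.8 CPM with E2, while E2 plus fulvestrant gave 37.5 and 41.0 CPM. In shARID1A it was 29.4 and 26.5 CPM with DMSO, 31.4 and 31.8 CPM with E2, while E2 plus fulvestrant gave 28.4 and 28.9 CPM. The first shNC library with E2 is the highest of the 12, and replicates of RELB differed more than those of the other 3 genes (replicate SD 0.09 on the log2 scale, against 0.04 to 0.05). The arm means were 41.3 ± 3.32 and 29.4 ± 1.97 CPM, and the fitted level was 28.7% lower in shARID1A.

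IL32 encodes a proinflammatory cytokine and had the largest ratio between the arms of the 4 genes. In shNC its level was 56.4 and 54.5 CPM with DMSO, 58.3 and 52.9 CPM with E2, while E2 plus fulvestrant gave 50.5 and 49.7 CPM. In shARID1A it was 28.4 and 28.1 CPM with DMSO, 32.1 and 32.4 CPM with E2, while E2 plus fulvestrant gave 25.6 and 24.2 CPM. The libraries with fulvestrant are the lowest of each arm. The arm means were 53.7 ± 3.33 and 28.4 ± 3.32 CPM, and the fitted level was 47.3% lower in shARID1A.

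SOD2 encodes the manganese superoxide dismutase of mitochondria, which turns superoxide into hydrogen peroxide. In shNC its level was 181.4 and 166.0 CPM with DMSO, 169.8 and 174.6 CPM with E2, while E2 plus fulvestrant gave 177.7 and 184.6 CPM. In shARID1A it was 131.8 and 129.0 CPM with DMSO, 135.5 and 134.8 CPM with E2, while E2 plus fulvestrant gave 133.3 and 137.1 CPM. All shNC libraries lie above all shARID1A libraries, the shNC range with DMSO spans that with E2 and reaches into that with fulvestrant, and in shARID1A both DMSO libraries are the lowest. The arm means were 175.7 ± 7.0 and 133.6 ± 2.90 CPM, and the fitted level was 24.0% lower in shARID1A.

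**Figure D1:**
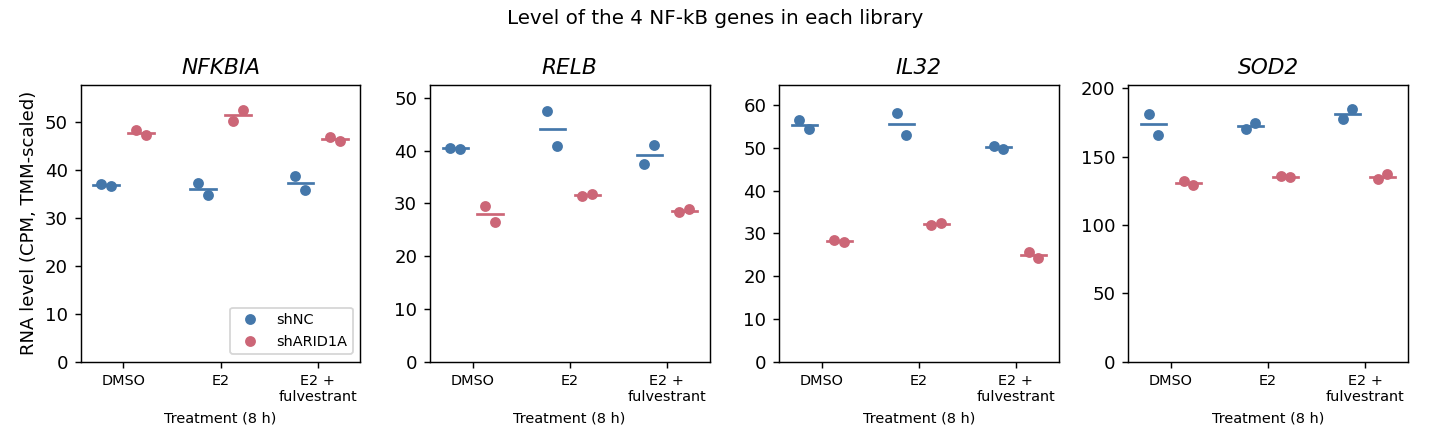
RNA level (CPM on TMM-scaled library sizes, vertical axes from 0) of NFKBIA, RELB, IL32 and SOD2 by treatment, with 1 point per library and a line at each mean of 2; blue is shNC and red shARID1A. NFKBIA runs from 34.7 to 38.8 CPM in shNC and from 45.9 to 52.5 CPM in shARID1A, and the other 3 genes lie lower in shARID1A in every treatment.

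Across treatments the log2 difference between the arms was 0.37 (SE 0.08) with DMSO, 0.52 (SE 0.08) with E2 and 0.32 (SE 0.08) with E2 plus fulvestrant for NFKBIA. For RELB it was -0.53 (SE 0.10), -0.48 (SE 0.09) and -0.45 (SE 0.10) in the same order. For IL32 it was -0.97 (SE 0.09), -0.78 (SE 0.08) and -1.01 (SE 0.09), and for SOD2 -0.41, -0.35 and -0.42 (SE 0.06 each). Each gene kept its direction in all 3 treatments. Means over the treatments were 0.40 (SE 0.05), -0.49 (SE 0.05), -0.92 (SE 0.05) and -0.40 (SE 0.04) for NFKBIA, RELB, IL32 and SOD2. In this averaged comparison 43.1% of the tested genes were called (adjusted p under 0.05), 20.3% higher and 22.8% lower. The levels of 22% of tested genes did not overlap between the 6 and 6 libraries, 11.4% lying higher and 10.6% lower in shARID1A. Since the same comparison chose the 4 genes, nothing is read from their standing in it. In bulk RNA, fewer cells that express a gene and less RNA per cell cannot be told apart.

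The ratio of inhibitor to subunit RNA followed from these levels. NFKBIA over RELB, in CPM, ran from 0.785 to 1.04 in shNC and from 1.59 to 1.78 in shARID1A. IL32 over NFKBIA, the cytokine over the inhibitor, ran from 1.30 to 1.56 in shNC and from 0.527 to 0.639 in shARID1A. On this scale a longer transcript gives more counts, so the ratios compare libraries and not the amounts of the genes.

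Per length, the order of the 4 genes differed between the arms. In shNC, on the RPKM scale (counts scaled to exon length as well as library size), IL32 had 20.3 ± 1.26 and SOD2 19.9 ± 0.79 (SD, n = 6), which did not differ beyond their spread. NFKBIA followed at 15.6 ± 0.60 and RELB at 13.7 ± 1.11 RPKM, with overlapping ranges. In shARID1A NFKBIA was first at 20.6 ± 1.05 RPKM and SOD2 second at 15.1 ± 0.33 RPKM, with no overlap between them. IL32 at 10.8 ± 1.26 and RELB at 9.77 ± 0.66 RPKM overlapped at the bottom. Over all libraries the means were 18.1 RPKM for NFKBIA, 17.5 for SOD2, 15.6 for IL32 and 11.7 for RELB, levels above those of 69.9% to 78.1% of tested genes. SOD2 has 8837 annotated exon bases against 2350 to 3007 for the others, and exons that these cells do not use would lower its RPKM.

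Treatment effects were not used to choose the genes and were tested. No E2 effect on the 4 genes passed the threshold. Averaged over the arms, E2 against DMSO gave log2 fold changes of 0.04 (SE 0.06) for NFKBIA, 0.15 (SE 0.07) for RELB, 0.10 (SE 0.06) for IL32 and 0.02 (SE 0.04) for SOD2, each with an adjusted p of 0.999 (edgeR quasi-likelihood test with Benjamini-Hochberg adjustment). Of all tested genes 0.00588%, which is 1 gene, was called in this comparison. DESeq2 also called 0 of the 4. RELB alone had an unadjusted p under 0.05 in edgeR (unadjusted p = 0.0306, adjusted p = 0.999), and both its E2 libraries lay above both DMSO libraries in each arm, as did those of 2.14% of tested genes. The 95% intervals of the log2 change were -0.08 to 0.16 for NFKBIA, 0.02 to 0.29 for RELB, -0.03 to 0.22 for IL32 and -0.07 to 0.11 for SOD2.

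Adding fulvestrant to E2 gave its largest difference among the 4 in IL32. The log2 fold change of IL32 against E2 alone, averaged over the arms, was -0.26 (SE 0.06, 95% interval -0.39 to -0.13), a level 16.5% lower. In edgeR the unadjusted p was 0.000196 and the adjusted p 0.0843, which misses the threshold, while DESeq2 gave -0.27 with an adjusted p of 0.00626. Without the low-count filter the edgeR adjusted p was 0.0284, and without the second shNC library with E2 it was 0.0290. Over the libraries left out in turn the adjusted p ran from 0.0290 to 0.479. IL32 was lower with fulvestrant than with E2 in both libraries of each arm with no overlap, as were 5.71% of tested genes.

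For the other 3 genes, fulvestrant with E2 against E2 alone gave -0.05 (95% interval -0.17 to 0.07, adjusted p = 0.752) for NFKBIA, -0.16 (-0.29 to -0.02, adjusted p = 0.270) for RELB and 0.04 (-0.05 to 0.12, adjusted p = 0.745) for SOD2 in edgeR. So 0 of the 4 genes were called by edgeR and 1 by DESeq2. RELB and IL32 had an unadjusted p under 0.05 in edgeR (RELB, unadjusted p = 0.0267, adjusted p = 0.270). Of all tested genes 0.0646% (11 genes) were called by edgeR and 245 genes by DESeq2. The 11 were FASN, ACSS2, TRIB3, ANPEP, KRT7, SCDP1 and GNG5P2, lower, and TNPO1, HNRNPA2B1, MBNL2 and MBNL3, higher.

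Set against DMSO rather than E2, the libraries with E2 plus fulvestrant differed by -0.01 (95% interval -0.13 to 0.11) for NFKBIA, -0.00 (-0.14 to 0.14) for RELB, -0.16 (-0.29 to -0.04) for IL32 and 0.06 (-0.03 to 0.14) for SOD2 on the log2 scale. In edgeR 0% of all tested genes were called here (0 genes, 1422 at an unadjusted p under 0.05, 2 by DESeq2), and IL32 had an unadjusted p of 0.0143 and an adjusted p of 0.559. IL32 lay below DMSO in both libraries of each arm, as did 3.85% of tested genes. The 3 treatment comparisons share libraries, so their values are not independent of one another.

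**Figure D2:**
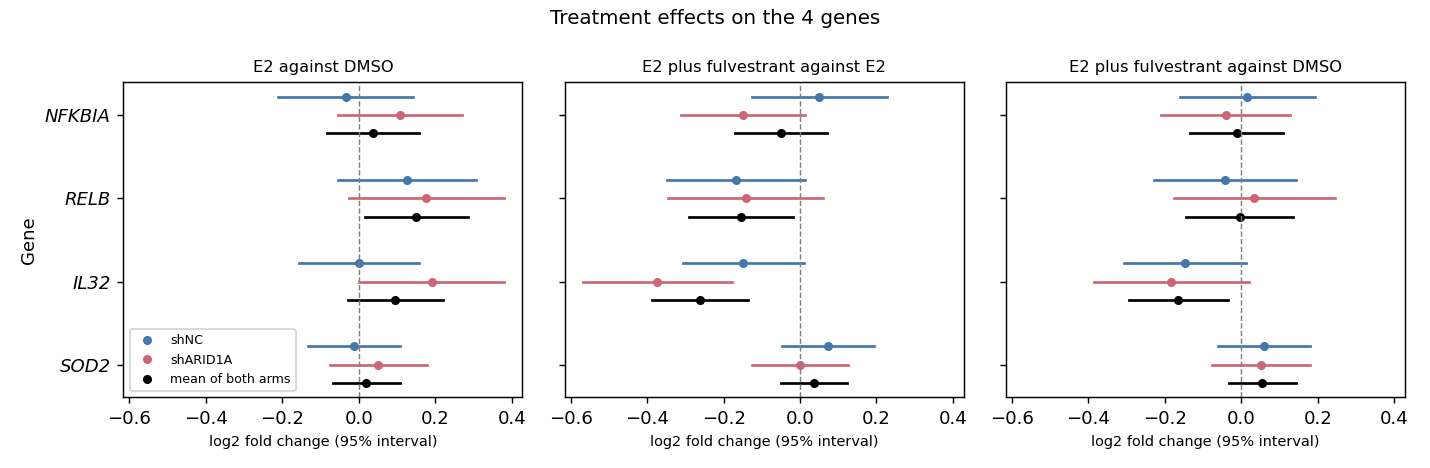
Treatment effects on NFKBIA, RELB, IL32 and SOD2 (horizontal axes, log2 fold change with its 95% interval) in shNC (blue), shARID1A (red) and averaged over the arms (black), 1 panel per comparison. Most intervals cross the dashed line at 0; for E2 plus fulvestrant against E2 the interval of IL32 averaged over the arms runs from -0.39 to -0.13.

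Within single arms edgeR called 0 of the 4 genes in any treatment comparison, and of all tested genes it called 0.00588% in shNC and 0.0235% in shARID1A for E2 against DMSO, 0.00588% in each for fulvestrant with E2 against E2, and 0.0118% in shNC and 0% in shARID1A (695 genes at an unadjusted p under 0.05, 0 by DESeq2) for fulvestrant with E2 against DMSO. At an unadjusted p under 0.05 stood only IL32 in shARID1A, for E2 against DMSO (0.19, SE 0.09, edgeR adjusted p = 0.753) and for fulvestrant with E2 against E2. The fulvestrant difference of IL32 was -0.15 (SE 0.08, adjusted p = 0.663) in shNC and -0.37 (SE 0.10, adjusted p = 0.309) in shARID1A by edgeR, and DESeq2 called it in shARID1A (-0.37, adjusted p = 0.0437). The interaction, the difference between the arms in this effect, was -0.23 (SE 0.12, 95% interval -0.48 to 0.03, edgeR adjusted p = 1.00), so that a difference between the arms was not shown. For NFKBIA the effect of E2 against DMSO was -0.03 in shNC and 0.11 in shARID1A, with an interaction of 0.14 (SE 0.12, 95% interval -0.10 to 0.38, edgeR adjusted p = 0.882). The E2 interactions were 0.05 (SE 0.13) for RELB, 0.19 (SE 0.12) for IL32 and 0.06 (SE 0.09) for SOD2. None of the 12 interaction tests of the 4 genes had an unadjusted p under 0.05 in edgeR, and none was called by DESeq2. Over all tested genes edgeR called 0.0294% (5 genes) in the E2 interaction, 0.0118% (2 genes) in the fulvestrant interaction against E2, and 0% against DMSO (0 genes, 814 at an unadjusted p under 0.05, 2 by DESeq2).

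The rest of the pathway was read from 9 lists by role, holding 130 genes, of which 109 were matched by symbol and 88 tested; the other 21 matched genes had too few counts. The 4 genes are not in these lists, and the arm difference of the 88 was tested. The lists were drawn up with earlier results of these data known, so their share of calls is not independent of that choice. Averaged over the treatments, 19 rose and 34 fell in shARID1A and 35 were not called by edgeR, so 60.2% were called against 43.1% of all tested genes. Their median log2 fold change was -0.07 against -0.02 over all tested genes. In single treatments 7 rose and 22 fell with DMSO (of all tested genes 19.2% were called, 9.7% higher and 9.5% lower). With E2, 11 rose and 26 fell (27.2%, 13.4% and 13.8% of all tested genes), and with E2 plus fulvestrant 8 rose and 23 fell (24.2%, 11.4% and 12.8%). In all 3 treatments 6 were called higher and 18 lower, and 0 were called in opposite directions. The matching shares of all tested genes were not counted, so nothing is read from these numbers. The count of higher genes fell to 4 with DMSO without the second library of either arm, to 5 or 6 with E2 likewise, and to 5 with fulvestrant without the first shARID1A library.

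Among the other subunit genes, 2 rose, 1 fell and 1 was not called (75% called, against 43.1% of all tested genes), with small changes. RELA, the main activating subunit, rose from 154.6 ± 8.25 to 184.2 ± 9.26 CPM (SD, n = 6; log2 fold change 0.25, edgeR adjusted p = 3.11e-06). NFKB2, whose product is cut to the RELB partner p52, fell from 203.6 ± 12.4 to 184.7 ± 5.25 CPM (-0.14, edgeR adjusted p = 0.00121). NFKB1 was called higher (67.9 to 73.3 CPM, 0.11, edgeR adjusted p = 0.0438), a call lost under 8 of 16 alternatives (DESeq2, its size factors, no filter, the replicate block, or 1 of 12 libraries left out), and REL had 3.23 and 4.13 CPM (0.35, edgeR adjusted p = 0.0894). RELB was chosen for its fall, so its direction is not set against theirs.

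Of the other 5 IkB genes, 1 rose and 2 fell (60% called, against 43.1% of all tested genes). NFKBIB, which encodes the cytoplasmic inhibitor IkB beta, rose from 38.9 ± 1.37 to 46.2 ± 2.69 CPM (0.25, edgeR adjusted p = 7.08e-05). BCL3, an atypical nuclear IkB protein that works with p50 and p52 on DNA, fell from 21.0 ± 1.74 to 12.1 ± 1.18 CPM (-0.80, edgeR adjusted p = 5.73e-11). NFKBIZ, another nuclear member, fell from 5.90 ± 0.82 to 3.70 ± 0.54 CPM (-0.67, edgeR adjusted p = 4.03e-05). NFKBIE (-0.03) and NFKBID (0.24, edgeR adjusted p = 0.0759) were not called.

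Among 12 kinases and kinase partners, 1 rose, 5 fell and 6 were not called (median -0.04). The share called was 50%, against 43.1% of all tested genes. TAB3 fell from 23.8 to 13.9 CPM (-0.78) and TAB2 from 43.9 to 31.4 CPM (-0.48); both proteins carry the TAK1 kinase to ubiquitin chains. CHUK, the IkB kinase of the noncanonical branch, was called lower (18.5 to 16.0 CPM, -0.21, edgeR adjusted p = 0.0305), a call lost under 8 of 16 alternatives. IKBKG (-0.17) is uncertain, since it has a near-identical copy, and its call was lost under 1 alternative. TAB1, called higher (0.18), lost its call under 10 of 16.

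Of 17 adaptors and ubiquitin ligases, 4 rose, 6 fell and 7 were not called (median -0.04). So 58.8% were called, against 43.1% of all tested genes. TRAF2, the adaptor of TNF receptors, rose from 183.0 ± 8.48 to 271.2 ± 7.87 CPM (0.57, edgeR adjusted p = 1.1e-14), and TRADD, its partner at the TNF receptor, from 24.4 to 31.3 CPM (0.36). SHARPIN (0.19) and RNF31 (0.19), subunits of the linear ubiquitin ligase, were also called higher, while RBCK1, the third subunit, fell (-0.23). RNF31 shares 35.6% of its exon bases with another annotated gene and lost its call under 6 of 16 alternatives. CARD10, a scaffold protein, fell from 200.4 to 152.3 CPM (-0.40), BIRC2 from 55.7 to 44.8 CPM (-0.32) and BIRC3 from 3.88 to 2.18 CPM (-0.81); both BIRC proteins are ubiquitin ligases of the TNF receptor complex.

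Of 11 negative regulators, 2 rose, 2 fell and 7 were not called (median -0.02). The share called was 36.4%, against 43.1% of all tested genes. TNFAIP3, the ubiquitin-editing enzyme A20 and itself a target of the pathway, rose from 6.23 ± 0.50 to 8.28 ± 0.93 CPM (0.41, edgeR adjusted p = 0.00114). COMMD1, which promotes degradation of RELA, rose (0.27), and the deubiquitinase CYLD and the A20 partner TAX1BP1 fell (both -0.35).

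Among 12 receptors, 3 rose, 4 fell and 5 were not called (median 0.03). So 58.3% were called, against 43.1% of all tested genes. TLR4, the lipopolysaccharide receptor, fell from 2.76 ± 0.49 to 0.663 ± 0.21 CPM (-2.05, edgeR adjusted p = 4.96e-09). TNFRSF1A (0.16) and LTBR (0.14), receptors for TNF and lymphotoxin, rose, and TNFRSF10B (-0.25) and TNFRSF1B (-0.50) fell. TNFRSF10A (-0.20) lost its call under 7 of 16 alternatives. EDAR (1.22) never passed 18 counts in a library and lost its call under 8 of 16. Both tested ligands changed: IL18 fell from 84.8 ± 3.18 to 58.6 ± 1.98 CPM (-0.53, edgeR adjusted p = 3.96e-12), and TNFSF12, which signals through the noncanonical branch, rose from 2.76 ± 0.67 to 6.71 ± 0.87 CPM (1.29, edgeR adjusted p = 1.18e-09).

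Among the target genes more fell than rose. Of 6 tested target cytokines, 0 rose, 3 fell and 3 were not called, so 50% were called against 43.1% of all tested genes. The median log2 fold change was -1.32, and all 3 that fell were scarce. Not called were CXCL8 (-1.70, SE 1.31, at most 16 counts), IL15 (-0.14) and CSF1 (0.09). CSF1 was the most abundant of the 6, with 20.0 CPM in shNC and 21.3 CPM in shARID1A. IL6 fell from 2.33 ± 0.18 to 0.644 ± 0.27 CPM (-1.89, edgeR adjusted p = 2.05e-08) and the chemokine CXCL2 from 2.90 ± 0.60 to 1.18 ± 0.26 CPM (-1.32, edgeR adjusted p = 8.94e-07). CCL2 (-1.32) had 0.06 with DMSO, -2.21 with E2 and -1.82 with E2 plus fulvestrant, never passed 27 counts and lost its call without the second shARID1A library with fulvestrant.

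Of 19 other targets, 5 rose, 10 fell and 4 were not called (median -0.23). So 78.9% were called, against 43.1% of all tested genes (20.3% higher and 22.8% lower). PTGS2, which encodes cyclooxygenase-2, fell from 20.4 ± 1.46 to 6.55 ± 0.74 CPM (-1.64, edgeR adjusted p = 1.25e-16), and the complement gene C3 from 3.91 to 0.559 CPM (-2.83). IER3, an immediate early gene, fell from 44.8 to 22.9 CPM (-0.97), and CD82, a tetraspanin, from 56.2 to 32.1 CPM (-0.82). EFNA1, an ephrin ligand, rose from 48.3 ± 2.37 to 93.7 ± 4.88 CPM (0.95, edgeR adjusted p = 4.38e-17). SQSTM1, an autophagy receptor, rose from 714.5 to 1023 CPM (0.52), with GADD45B (0.32) and IRF1 (0.23). The 2 directions thus occur together among these targets. The 4 genes, where NFKBIA is a target as well as an inhibitor, were chosen for their directions and add nothing to this.

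**Figure D3:**
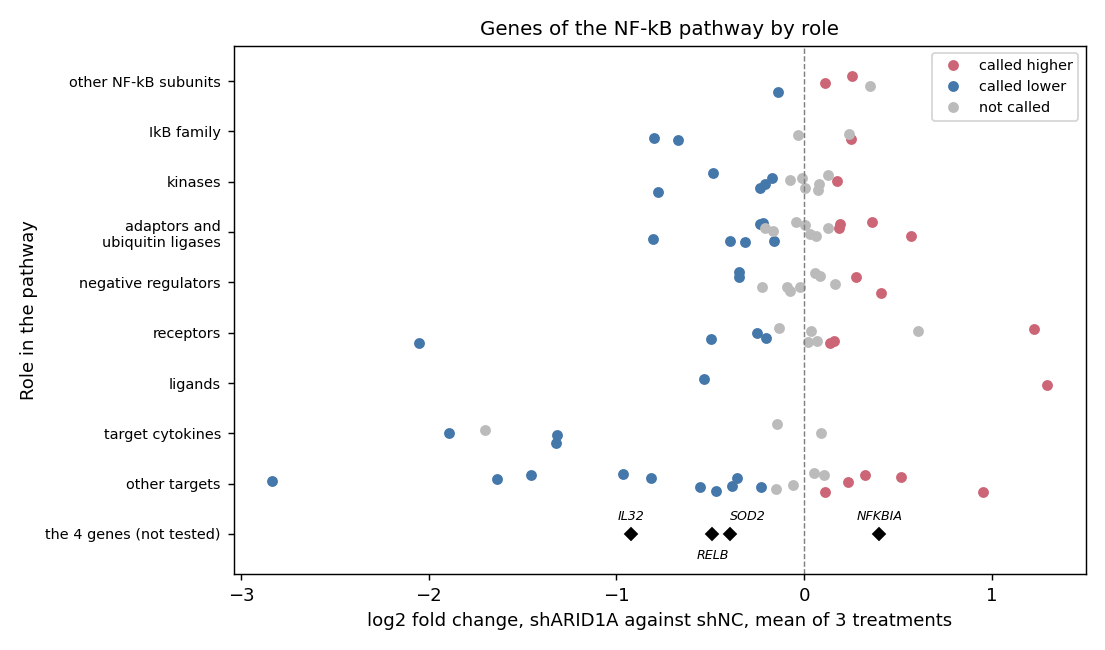
Log2 fold change of shARID1A against shNC, averaged over the 3 treatments (horizontal axis), for the 88 tested pathway genes in rows by role, with 1 point per gene, red where called higher, blue where called lower and grey where not called. Black diamonds are NFKBIA (0.40), SOD2 (-0.40), RELB (-0.49) and IL32 (-0.92), which were not tested; the targets reach from C3 at -2.83 to EFNA1 at 0.95.

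In the treatment comparisons averaged over the arms, edgeR called 0 of the 88 pathway genes. At an unadjusted p under 0.05 there were 3 (3.41%) for E2 against DMSO, where all tested genes gave 696 (4.09%). For fulvestrant with E2 against E2 there were 19 (21.6%), against 2489 (14.6%) of all tested genes, and for fulvestrant with E2 against DMSO 9 (10.2%), against 1422 (8.35%). DESeq2 called 2 (2.27%, against 1.44% of all tested genes), both for fulvestrant with E2 against E2: TAP1, a peptide transporter (-0.15, DESeq2 adjusted p = 0.0455), and SHARPIN (-0.16, DESeq2 adjusted p = 0.0335), named after their values were seen.

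Genes next to the 4 changed in both directions. The 3 nearest tested genes on each side made 24 in all, of which 8 rose, 4 fell and 12 were not called, where 43.1% of all tested genes were called. Next to NFKBIA, PSMA6 (0.09) and KIAA0391 (0.16) were not called, and PPP2R3C (-0.25) and RALGAPA1 (-0.30) were called lower. Next to RELB, CLPTM1, 8258 bases away, rose from 185.6 to 223.8 CPM (0.27, edgeR adjusted p = 4.7e-07) and CLASRP, 852 bases away, was not called (0.10). APOE (-1.24) was called lower there with no more than 16 counts in a library. PPP2R3C, APOE and 2 other called neighbours, ZNF205 (0.29) and IGF2R (0.15), lost their calls under 5, 6, 4 and 1 of 16 alternatives.

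Around IL32, the minus-strand gene ENSG00000261971.2, 5942 bases away, fell from 6.65 to 4.53 CPM (-0.56, edgeR adjusted p = 8.08e-05). HCFC1R1, 41039 bases away, rose from 18.3 to 35.5 CPM (0.95, edgeR adjusted p = 1.16e-13), about as far up as IL32 lay down. SOD2 shares 51 of its 8837 exon bases with ACAT2 on the opposite strand, and the counting records no strand. ACAT2, an enzyme of cholesterol synthesis, rose from 151.8 to 216.0 CPM (0.51, edgeR adjusted p = 6.43e-14), opposite in sign to SOD2. On one side EZR, 859715 bases away, rose (0.24), while the nearer RSPH3 (0.00) and C6orf99 (0.04) were not called. On the other side MRPL18, 27283 bases away, rose (0.22). TCP1, the nearest tested gene that does not overlap SOD2, was not called (-0.04).

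**Figure D4:**
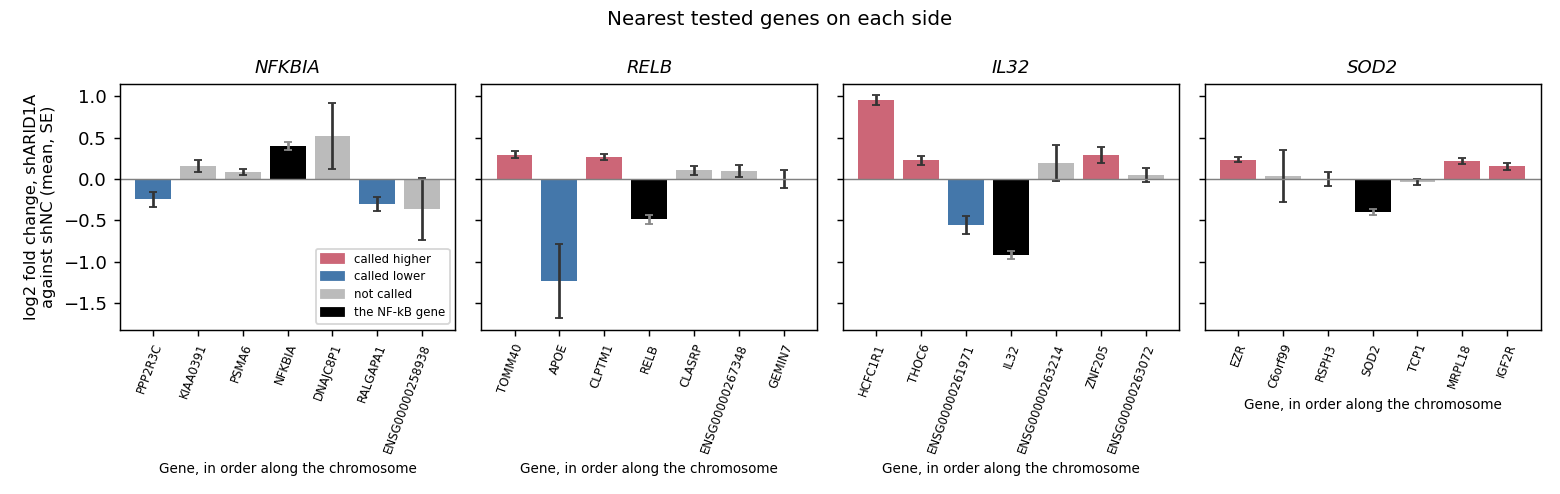
Log2 fold change of shARID1A against shNC, averaged over the 3 treatments (vertical axis, bars from 0 with SE), for the 3 nearest tested genes on each side of NFKBIA, RELB, IL32 and SOD2, in order along the chromosome. Red bars were called higher, blue lower, grey not called, and black bars are the 4 genes; HCFC1R1 (0.95) and IL32 (-0.92) point in opposite directions.

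The genes most like each of the 4 were found by Pearson's r of log2 CPM over the 12 libraries among 9540 genes with 5 CPM or more. These points share the arm difference, so a high r mostly restates it, and no p is given. For NFKBIA they were POLG (0.991), PRMT2 (0.990) and LPCAT1 (0.989), and for RELB SLC29A1 (0.982), HIP1R (0.967) and GSTM1 (0.963). For IL32 they were ACLY (0.994), RAP1GAP (0.992) and OSBP2 (0.990), and for SOD2 KIF20A (0.987), SCIN (0.987) and TNC (0.986). ACLY, which makes cytosolic acetyl-CoA for lipid synthesis, had 1389 CPM in shNC and 1026 CPM in shARID1A.

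With each arm's mean subtracted, the genes most like IL32 included ACSS2 (0.967) and WARS (0.952). ACSS2, an acetyl-CoA synthetase, was among the 11 genes that edgeR called for fulvestrant with E2 against E2 (-0.19, edgeR adjusted p = 0.0255). The leading genes were OR7E38P (0.894), PHF23 (0.892) and CCM2 (0.892) for NFKBIA, COX10 (0.911), CSNK2B (0.889) and RSAD1 (0.883) for RELB, and OXSM (0.857), CDCA7L (0.857) and PDSS2 (0.843) for SOD2. Among the 4 genes themselves, the arm-subtracted r was 0.685 between IL32 and NFKBIA, 0.624 between IL32 and RELB and 0.345 between NFKBIA and RELB. SOD2 had -0.233 to 0.039 with the other 3. Before subtraction NFKBIA had -0.858 to -0.936 with the other 3, and those 3 had 0.908 to 0.958 with one another. By arm, with no test of the difference, r for NFKBIA with IL32 was 0.930 over the 6 shARID1A libraries and 0.109 over the 6 shNC libraries, and for NFKBIA with RELB 0.801 and -0.159. For IL32 with RELB it was 0.653 in shARID1A and 0.697 in shNC. In the same order, SOD2 had 0.168 and -0.047 with NFKBIA, 0.666 and -0.349 with RELB, and -0.049 and -0.518 with IL32. Each set of 6 libraries spans the 3 treatments, so treatment differences enter these r values.

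Because IL32 and several pathway genes are also expressed by blood and stromal cells, markers of other cell types were summed in each library. Immune markers (13 of 13 matched) summed to 2.06 to 2.73 CPM in shNC and 2.33 to 3.90 CPM in shARID1A. Of these CD2, CD3D, CD3E, GNLY and MS4A1 were at 0 in all libraries, and PTPRC had at most 1 count. Fibroblast markers (8 of 8) summed to 32.2 to 44.0 CPM in shNC and 50.1 to 53.3 CPM in shARID1A. COL1A1 alone had 25.2 to 48.6 CPM of this over the libraries. Endothelial markers (5 of 7) summed to 0.058 to 0.282 CPM in shNC and 0.054 to 0.270 CPM in shARID1A. The fibroblast, epithelial and endometrial gland sums and the mitochondrial share differed between the arms together with the 4 genes, and their part in the result was not tested.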

How the data were processed

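Polyadenylated RNA of 12 libraries was sequenced (TRIZOL extraction, TruSeq mRNA kit, per the labels). The authors deposited raw read counts per gene, made with featureCounts 2.0.0 (Subread 2.0.0) over the exons of each gene, per the file headers. Per the submitters' processing notes, the build was hg19, and FastQC, Trim Galore and cutadapt were also used. The header names no strand option, so overlapping genes on opposite strands cannot be separated.

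The 4 genes and all lists were chosen with earlier results of these data known. Counts were scaled by TMM and filtered with filterByExpr, and 17020 of 45320 genes were tested in edgeR 4.0.16 (R 4.3.3) by the quasi-likelihood test, 1 mean per group, all libraries in 1 fit, Benjamini-Hochberg over all tested genes, called under 0.05. The 4 genes are described wherever shARID1A is set against shNC. Named besides them are all subunit and IkB genes, up to 4 genes called each way per other list by smallest adjusted p, the 3 most similar genes and the 3 nearest tested genes on each side. A called gene that loses its call under an alternative is said to do so. The scripts were tested on simulated data. Alternatives were DESeq2 1.42.0 (Wald test, and its size factors in edgeR), no filter, the replicate number as a block, and each library left out. The main fit did not pair libraries by replicate number. Deviations of same-numbered libraries correlated from -0.22 to 0.28 over 15 pairs of groups, with 7 pairs over 0.1. This does not settle whether the numbers mark pairs. RPKM used the exon length in the files. Fulvestrant was labelled with letters in place of the zeros of its dose, read as 100 nM. A few items that these rules name are not reported here.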

Additional observations from a re-analysis of the deposited data

How the results depend on the processing

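No direction named for the 4 genes between the arms reversed under any alternative run. The genes were chosen for these directions in the same libraries, so this is no test of them. Among the treatment tests of the 4, only those of IL32 for E2 plus fulvestrant against E2 crossed the threshold. Averaged over the arms, it was called by DESeq2 (-0.27) and with no filter (-0.26), and ran from -0.30 to -0.23 without single libraries. In shARID1A alone it was called by DESeq2. Of 57 called genes named in the pathway, near the 4 genes or as the target, 45 kept their call under all 16 alternatives and 12 did not; of 16 named genes not called, 5 were called under some. Without single libraries the arm difference of SOD2 with DMSO ran from -0.48 to -0.34, with E2 that of NFKBIA from 0.46 to 0.57, RELB from -0.59 to -0.37 and IL32 from -0.85 to -0.71, and with fulvestrant that of NFKBIA from 0.26 to 0.39.

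Counts of called genes moved more, and the cause was not tested. DESeq2 called 15 genes against 5 in the E2 interaction, and for fulvestrant with E2 against E2 it called 245 against 11 averaged over the arms, 2 against 1 in shNC, 13 against 1 in shARID1A and 1 against 2 in the interaction. Against DMSO it called 2 against 0 averaged, 13 against 2 in shNC and 2 against 0 in the interaction. With no filter there were 8, 12, 37 and 41 genes for E2 against DMSO (averaged, shNC, shARID1A, interaction), 256, 19, 41 and 9 for fulvestrant against E2, and 20, 50, 12 and 14 for fulvestrant against DMSO. With DESeq2's size factors, E2 in shARID1A gave 1 gene against 4. The replicate block gave 4 genes for E2 in shNC, 12 in the E2 interaction, 40 for fulvestrant against E2 averaged and 4 for fulvestrant against DMSO in shNC, and moved no other count of calls by over 1.5 times; with it the IL32 difference was -0.26 with an adjusted p of 0.0563.

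Without single libraries, E2 against DMSO called 0 to 4 genes averaged, 1 to 4 in shNC, 0 to 5 in shARID1A and 2 to 17 in the interaction. Fulvestrant against E2 called 0 to 222, 1 to 5, 1 to 27 and 1 to 4 in the same order, and fulvestrant against DMSO 0 to 7, 0 to 10, 0 to 4 and 0 to 2. Between the arms, 2005 to 3353 genes were called with DMSO, 2748 to 4651 with E2 and 2309 to 4181 with fulvestrant. The lowest counts came without the second library of either arm with DMSO or E2, and without the second shNC or first shARID1A library with fulvestrant. Pathway genes called higher ran from 4 to 7, 5 to 12 and 5 to 10 in the same order. By CPM with no length, averaged over the 12 libraries, SOD2 ranks first and NFKBIA second. In the 250 bases before a start alone, 5.20% of windows held a kappa B match.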
